A study of Homo sapiens with 15 samples.

Results

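The transcripts of 44 genes for cytosolic heat shock proteins, their partners and the chaperonin TRiC were followed in 12Z cells, an immortalised line of human endometriotic epithelial cells. The members are a list of gene symbols that was chosen with earlier results of these data known. Each of the 44 matched 1 of 60617 gene identifiers in the count files. The list holds 2 heat shock factors (HSF1, HSF2), 2 HSP90 proteins, 6 HSP70 proteins, 3 HSP110 proteins, 2 small heat shock proteins, 4 mitochondrial chaperones, 9 cytosolic J-domain proteins, 8 TRiC subunits, 3 BAG proteins and 5 partners of HSP90 or HSP70. Of these, 43 averaged at least 1 read per library and entered the tests, and 1 (HSPA1B) did not.

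The 15 RNA sequencing libraries fell into 5 groups of 3. The control group was given non-targeting siRNAs as a pool (NT), then an empty pBabe vector (EV) and vehicle. The other 4 groups all received a pool of siRNAs against RSAD2 (siRSAD2), which encodes the antiviral protein viperin, with either EV or PIK3CA H1047R, an activating substitution in the catalytic subunit of phosphatidylinositol 3-kinase, and with either vehicle or 100 nM insulin for 24 h after 4 h without serum. Insulin and H1047R were therefore read here only on top of the RSAD2 knockdown, in 1 cell line, with transiently delivered siRNAs and plasmids. The methods describe independent experiments, and the 3 libraries of a group are treated as replicates.

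Heat shock proteins keep other proteins folded. HSP70 proteins bind short hydrophobic stretches of unfolded chains in a cycle that J-domain proteins start and that HSP110 and BAG proteins reset by exchanging the bound nucleotide, and HSP90 finishes the folding of many kinases and receptors with the help of cochaperones. TRiC is a double ring that encloses actin, tubulin and other proteins while they fold. HSF1 is the transcription factor that switches on many of these genes when unfolded proteins accumulate, by binding repeats of the heat shock element.

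Gene counts, reverse-stranded and excluding the summary entries, totalled 16.1 to 39.7 M per library. RSAD2 had 3.003, 3.16 and 3.69 counts per M (CPM, scaled by the TMM method) in the NT libraries and 0.0768 to 1.41 CPM in the 12 siRSAD2 libraries, and PIK3CA had 76.4 to 109 CPM in the 9 EV libraries and 160.4 to 223 CPM in the 6 H1047R libraries, so neither gene went against a label. Of the epithelial markers, KRT8, KRT18 and KRT19 were abundant (at least 414 CPM in every library), but EPCAM stayed at or below 0.610 CPM and CDH1 at or below 1.00 CPM, while the mesenchymal genes VIM and COL1A1 had at least 1490 CPM. Some libraries stood apart. The share of gene counts on the forward strand was 5.77 to 5.89% in the NT libraries, the siRSAD2 EV vehicle libraries and EV insulin replicates 1 and 2, and 6.11 to 6.50% in EV insulin replicate 3 and all H1047R libraries. In vehicle-treated cells this split and H1047R cannot be told apart. In siRSAD2 EV vehicle replicate 3, 8.31% of read pairs were unmapped against at most 5.45% elsewhere, and 112 pseudogenes named after members or their HSP90 and HSP70 families summed to 91.4 CPM against 27.2 to 37.9 CPM elsewhere. PTPRC, an immune cell marker, had 9.02 CPM in that library and at most 1.59 CPM in the others. Of the other immune markers listed, CD14 had 2.81 CPM there, within its range elsewhere (2.80 to 4.95 CPM). CD68, CD3E and MS4A1 had at most 0.278 CPM there, and the source of the PTPRC reads was not tested.

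Length-scaled levels set HSP90AA1 and HSPA8, the inducible HSP90 and the constitutive HSP70, at the top, with means over the 15 libraries of 713 and 712 CPM per kb of the canonical transcript. HSP90AB1, the constitutive HSP90, followed with 530.4 CPM per kb and HSPB1 (HSP27), a small heat shock protein, with 326 CPM per kb. The TRiC subunits lay together, from 103 CPM per kb for CCT3 to 252 CPM per kb for CCT8, while the assembled rings hold their subunits in equal numbers. HSF1 had 14.5 and HSF2 11.02 CPM per kb. At the lower end, HSPA4L, an HSP110 protein known from testis, had 3.30 CPM per kb and DNAJA4, a J-domain protein, 0.193 CPM per kb.

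**Figure D1:**
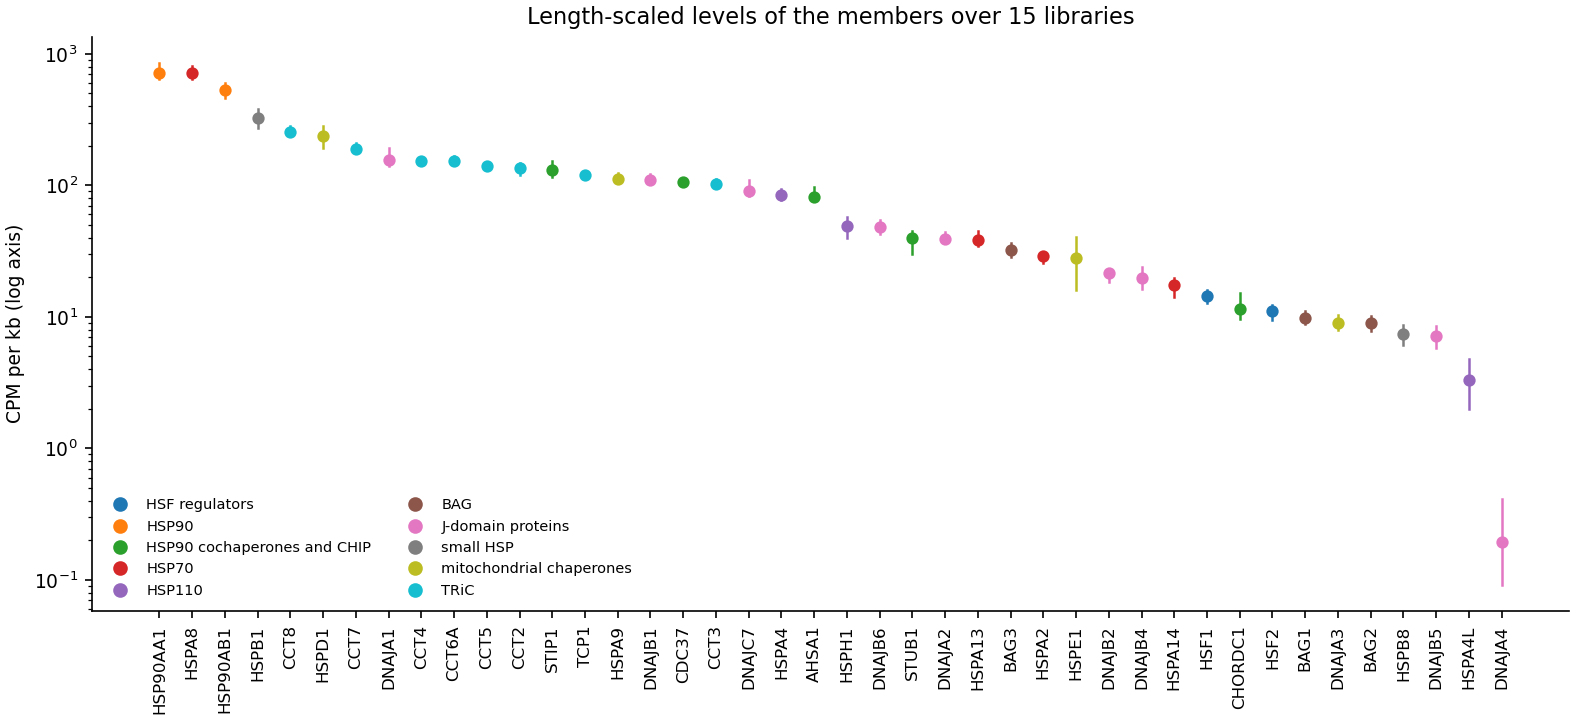
Mean CPM per kb of canonical transcript over 15 libraries (points, log axis) with the lowest and highest library (lines) for 42 members, coloured by role. HSP90AA1 (713) and HSPA8 (712) lead, the 8 TRiC subunits lie between 103 and 252, and HSPE1 has a wide spread for its level.

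The stress-inducible HSP70 pair HSPA1A and HSPA1B (ENSG00000204389.10 and ENSG00000204388.7, hg38 chromosome 6, 31815543 to 31817946 and 31827738 to 31830254, plus strand) was almost without reads. HSPA1A had 0, 5 and 0 reads in the NT libraries, 0, 3 and 2 in siRSAD2 EV vehicle, 1, 0 and 0 in EV insulin, 2, 4 and 2 in H1047R vehicle and 3, 1 and 5 in H1047R insulin. HSPA1B had 1 read in H1047R vehicle replicate 1 and 0 in the other 14 libraries. The 2 genes are near-identical copies. Of the 50-base windows along the HSPA1A transcript, 75.1% also occur in HSPA1B, and reads that match several places were not counted. DDX39B and CSNK2B, genes of the same region of chromosome 6 that most cells use, also had 0 reads in all 15 libraries. BAG6, of that region too, had 160 to 193 CPM, and why the other 2 genes had no reads was not tested. Reads shared by the 2 copies are not counted, and why the rest of each transcript also had almost no reads was not tested. These counts are therefore not taken as a reading of how much HSPA1A or HSPA1B the cells made. No fold change is given. The inducible HSP40 DNAJB1, the J-domain partner of HSPA1A, had 229 to 275 CPM in every library.

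Other members share sequence too. Of the 44, 21 had no 50-base window in common with an annotated transcript of a gene at another locus. Genes that overlap the member were left out of this search. Over 10% was in common for 10 members, with HSPE1 at 31.5% and HSPD1 at 27.1%, their closest matches being the pseudogenes HSPE1P2 and HSPD1P1. On the opposite strand, JMJD8 overlaps 52.2% of the transcript of STUB1 (CHIP, the ubiquitin ligase that works with HSP70). The unstranded count of STUB1 was 28.4% of its stranded count. In the unstranded column, reads that fall in both genes are not counted.

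Promoters were searched for the heat shock element, since HSF1 is known to drive many of the members in stress. The search took 3 units in alternation, GAANNTTCNNGAA or TTCNNGAANNTTC, which together cover both strands, in windows from 250 bases before to 50 bases after each annotated start (RefSeq, GRCh38.p14). It matched in 0.608% of 27305 genes with a window and in 7 of 40 members (17.5%), namely HSP90AA1, HSP90AB1, HSPA8, HSPD1, CHORDC1, DNAJB6 and DNAJA1. A shorter form of 2 units, TTCNNGAA or GAANNTTC, which every longer match contains, occurred in 16.2% of genes and in 21 of the 40 members (52.5%). Of the members, HSF1, HSPA14, CCT6A and STUB1 had no window. The stretches below were chosen because they belong to members the results turn on, or hold the longest run of units, and capitals mark the 3-unit matches or, for HSPA4L, the 2-unit match. The stretches of HSP90AA1, HSP90AB1, CHORDC1 and HSPA4L leave out annotated untranslated bases. For HSPA8 and HSPD1 only 30 bases around a match are shown, and these may hold untranslated bases. HSP90AA1 is at chr14:102087045-102087294 (minus strand), CHORDC1, a cochaperone of HSP90, at chr11:90223078-90223299 (minus strand), HSP90AB1 at chr6:44247693-44247865 (plus strand, before a start 842 bases from the canonical one), HSPA4L at chr4:127782072-127782321 (plus strand), HSPA8 at chr11:123062171-123062200 (minus strand) and HSPD1 at chr2:197500061-197500090 (minus strand).
HSP90AA1: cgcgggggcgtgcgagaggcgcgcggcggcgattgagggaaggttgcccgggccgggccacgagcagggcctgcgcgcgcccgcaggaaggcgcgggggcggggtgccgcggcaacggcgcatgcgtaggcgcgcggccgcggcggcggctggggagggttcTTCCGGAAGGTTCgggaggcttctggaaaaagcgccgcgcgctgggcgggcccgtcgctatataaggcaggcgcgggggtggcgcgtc
HSP90AB1: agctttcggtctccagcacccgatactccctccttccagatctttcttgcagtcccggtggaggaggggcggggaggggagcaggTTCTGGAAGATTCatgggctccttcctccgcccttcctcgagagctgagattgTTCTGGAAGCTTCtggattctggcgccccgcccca
HSPA8: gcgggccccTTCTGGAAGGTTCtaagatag
HSPD1: gcattTTCTGGAAAGTTCTGGAAccgagcg
CHORDC1: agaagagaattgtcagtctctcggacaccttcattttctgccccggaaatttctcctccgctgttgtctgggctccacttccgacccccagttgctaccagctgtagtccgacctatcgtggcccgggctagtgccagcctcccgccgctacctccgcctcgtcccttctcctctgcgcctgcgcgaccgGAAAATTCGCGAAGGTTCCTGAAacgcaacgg
HSPA4L: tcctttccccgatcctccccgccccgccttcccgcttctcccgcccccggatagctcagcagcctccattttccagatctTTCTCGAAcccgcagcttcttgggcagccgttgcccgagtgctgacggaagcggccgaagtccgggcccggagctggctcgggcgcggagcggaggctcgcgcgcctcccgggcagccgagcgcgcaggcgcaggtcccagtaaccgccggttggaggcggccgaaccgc
These are matches of letters in a window. They describe the promoters and were not tested for binding by HSF1.

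The first comparison set siRSAD2 against NT in vehicle-treated EV cells. The NT libraries are numbered 4 to 6 and the siRSAD2 libraries 1 to 3. If the numbers mark separate experiments, those and the siRNA cannot be told apart. Effects of the siRNA pool on genes other than RSAD2 were not tested either. The members differed in both directions. HSPA4L and HSPH1, which are HSP110 proteins, HSPD1, the mitochondrial chaperonin, HSP90AB1, the HSP70 partner BAG3 and the J-domain protein DNAJB2 rose, while HSPA8, HSPA13, HSPB1, DNAJA2 and the TRiC subunits CCT8, CCT3 and TCP1 fell. With edgeR's quasi-likelihood test and Benjamini-Hochberg adjustment over 23184 genes, 13 of 43 members passed an adjusted p of 0.05 (30.2%), 6 higher and 7 lower. In what follows, called and not called refer to this test unless another is named. Of all genes tested, 19.5% passed (9.82% higher and 9.72% lower), and of the 9592 genes averaging at least 10 CPM, which is where most members lie, 34.3% passed, so the members were called about as often as other well expressed genes. Of the 43, 21 had libraries that did not overlap between the groups, beside 33.2% of all genes. The overlap is not given for genes averaging at least 10 CPM, so this count does not set the members apart from them. The median over the members was 0.01 on the log2 scale, beside 0.02 over all genes.

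HSPA4L (ENSG00000164070.12, hg38 chromosome 4, 127781821 to 127840733, plus strand) had 21.3, 24.8 and 21.9 CPM with NT and 34.8, 32.2 and 31.5 CPM with siRSAD2. The groups did not overlap. It rose by 0.53 ± 0.08 (log2 fold change ± SE, adjusted p = 5.25e-06 in edgeR), a rise of 44.7%. No other member moved as far, apart from the little expressed DNAJA4 (0.72 ± 0.49, not called).

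HSPH1, which encodes HSP105 (ENSG00000120694.20, chromosome 13, 31134973 to 31162388, minus strand), had 211, 208 and 221 CPM with NT and 249.8, 238 and 256 CPM with siRSAD2. Every siRSAD2 library was above every NT library, and the rise was 0.22 ± 0.04 (edgeR adjusted p = 5.30e-04). The most abundant HSP110 member, HSPA4, had 401, 404 and 415 CPM against 374, 371 and 389.7 CPM. The difference of -0.10 ± 0.04 was not called by edgeR in the fit of all 15 libraries (adjusted p = 0.0829), but it was called lower by DESeq2 (adjusted p = 0.0454) and by edgeR with the compared groups alone (adjusted p = 0.0345). Its sign was opposite to that of both paralogues.

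HSPD1 (HSP60, ENSG00000144381.17, chromosome 2, 197486584 to 197516737, minus strand) folds proteins inside mitochondria in a chamber that HSPE1 (HSP10) closes. It had 428, 444 and 443 CPM with NT and 526, 518 and 547 CPM with siRSAD2, and rose by 0.28 ± 0.04 (edgeR adjusted p = 2.33e-05). The groups were clearly apart. Its partner HSPE1 had 8.90, 14.0 and 13.4 CPM with NT and 10.2, 13.5 and 12.8 CPM with siRSAD2, which overlapped. Neither HSPA9 (mortalin), the mitochondrial HSP70, nor DNAJA3, its J-domain partner, was called.

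The HSP90 pair divided. HSP90AB1 (ENSG00000096384.20, chromosome 6, 44246166 to 44253888, plus strand) had 1182, 1213 and 1215 CPM with NT and 1373, 1407 and 1403 CPM with siRSAD2. It rose by 0.21 ± 0.04 (edgeR adjusted p = 4.45e-04) with no overlap. For HSP90AA1 the values were 2074, 2339 and 2263 CPM against 2281, 2316 and 2345 CPM, and the difference of 0.06 ± 0.05 was within the spread of the NT libraries. Of the cochaperones AHSA1, CDC37, STIP1 and CHORDC1 and the ligase STUB1 none was called, although STUB1 was called with the compared groups alone and with no filter on low counts, and AHSA1 without siRSAD2 EV vehicle replicate 1.

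HSPA8 (HSC70, ENSG00000109971.14, chromosome 11, 123057489 to 123063230, minus strand) is the housekeeping HSP70 of the cytosol and also uncoats clathrin vesicles. It had 1747, 1827 and 1809 CPM with NT and 1531, 1592 and 1659 CPM with siRSAD2. All siRSAD2 libraries were lower, and it fell by 0.17 ± 0.04 on the log2 scale (edgeR adjusted p = 1.25e-03). Of the members with a 3-unit promoter match, HSPD1 and HSP90AB1 were called higher here and HSPA8 lower. HSP90AA1, CHORDC1, DNAJB6 and DNAJA1 were not called. Whether the matches bear on these differences was not tested.

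CCT8, the theta subunit of TRiC (ENSG00000156261.13, chromosome 21, 29055805 to 29073797, minus strand), had 478, 528 and 519 CPM with NT and 446, 454 and 448 CPM with siRSAD2. It fell by 0.18 ± 0.04 (edgeR adjusted p = 2.12e-03). The ranges did not overlap, and NT replicate 4 was the lowest of its group for all subunits that were called. CCT3 (-0.16 ± 0.05) and TCP1 (-0.12 ± 0.04) also fell, and the other 5 subunits, from -0.09 for CCT4 to 0.08 for CCT7, were not called. The TRiC median was -0.08.

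Of the remaining calls, DNAJB2, a J-domain protein that hands clients to the proteasome, rose by 0.23 ± 0.05, and BAG3, which directs clients to autophagy, rose by 0.24 ± 0.06. The small heat shock protein HSPB1 (-0.22 ± 0.06), DNAJA2 (-0.17 ± 0.05), which starts the HSP70 cycle, and HSPA13 (-0.15 ± 0.05), a microsomal HSP70 protein, fell. Of the 112 pseudogenes, 52 were tested and 12 were called, all 12 higher with siRSAD2. Without siRSAD2 EV vehicle replicate 3, where they were most abundant, 12 members were called, and all 12 were among the 13. The falls were less settled than the rises: 3 in place of 7 were called without NT replicate 5 (8 members in all), without NT replicate 6 (9) or without siRSAD2 EV vehicle replicate 2 (9), and HSPB1 was not called without NT replicate 4 or siRSAD2 EV vehicle replicate 1. The cell type markers moved in the same comparison. Of 8 epithelial markers 4 were called, all lower, with summed levels of 2363 to 2397 CPM with NT and 1909 to 2047 CPM with siRSAD2, and of 7 stromal markers 6 were called lower and 1 higher. Their part in the members' differences was not tested.

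**Figure D2:**
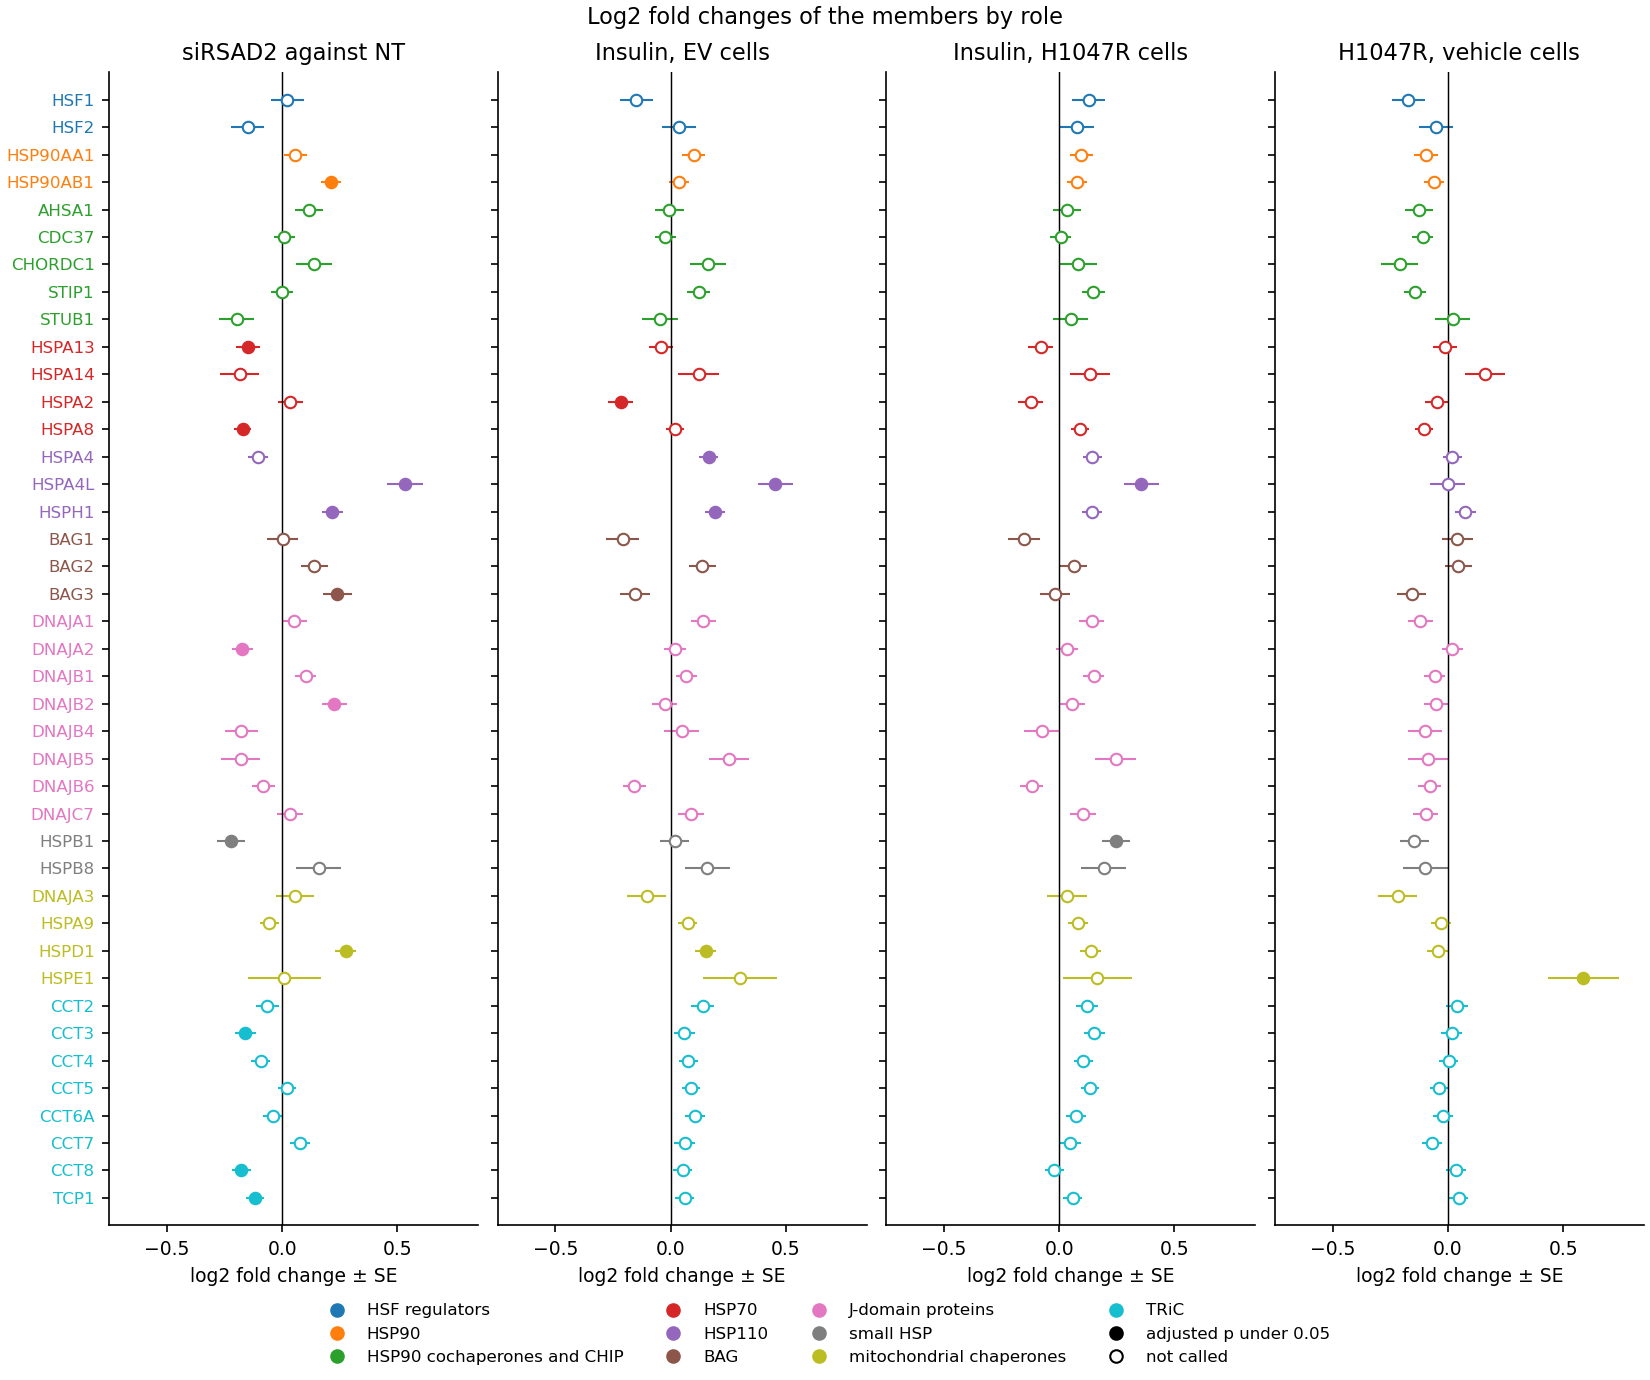
Log2 fold change with SE for 41 members in 4 comparisons (n = 3 libraries per group), coloured by role, with filled points for an adjusted p under 0.05. The little expressed HSPA1A, HSPA1B and DNAJA4 are left out. With siRSAD2 the roles split (HSPA4L at 0.53, HSPB1 at -0.22), and with insulin most points lie just above 0 in both cell backgrounds.

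Insulin was compared with vehicle in siRSAD2 cells with EV and, in separate libraries, with H1047R. In EV cells all 3 HSP110 members and HSPD1 rose and HSPA2, an HSP70 protein abundant in testis, fell. Of 43 members 5 were called (11.6%), 4 higher and 1 lower, beside 6.28% of all genes (2.1% higher and 4.19% lower) and 12.1% of genes averaging at least 10 CPM. In H1047R cells 2 members were called (4.65%), HSPA4L and HSPB1, both higher, beside 2.47% of all genes (0.483% higher and 1.99% lower) and 5.46% of genes averaging at least 10 CPM. With rises and falls counted together, the members were thus called in this fit about as often as other well expressed genes. The H1047R count depended on the fit. DESeq2 called 10 members, all higher, beside 6.32% of the genes it adjusted, and a fit of the compared groups alone called 11, all higher, beside 5.4% of genes, with HSPA4, HSPH1, HSPD1, STIP1, CCT3 and CCT5 among those in both. In EV cells the fit of the compared groups alone called 1 member, HSPA4L, beside 2.23% of genes. Libraries that did not overlap between vehicle and insulin were seen for 16 of 43 members in EV cells, beside 18.9% of all genes, and for 25 in H1047R cells, beside 19.4%. The direction was less even: all genes had medians of 0.00 in both backgrounds, whereas the members had medians of 0.06 with 31 of 43 above 0 in EV cells and 0.09 with 36 of 43 above 0 in H1047R cells, beside 50.2% and 49.5% of all genes above 0. The genes are not independent of each other, so these counts describe the list and carry no test. Shares for genes averaging at least 10 CPM are given only for the calls of the edgeR fit of all 15 libraries. Whether other well expressed genes overlapped as little or leaned the same way is therefore not shown. In bulk RNA, more RNA per cell and more cells that express a gene cannot be told apart.

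HSPA4L had 34.8, 32.2 and 31.5 CPM with vehicle and 42.1, 50.6 and 42.2 CPM with insulin in EV cells. In H1047R cells it had 31.5, 33.9 and 32.9 CPM with vehicle and 39.5, 43.5 and 43.0 CPM with insulin. Each insulin library was above each vehicle library in both backgrounds. The rises were 0.45 ± 0.07 (edgeR adjusted p = 1.27e-04) and 0.36 ± 0.07 (adjusted p = 4.14e-03), or 37.1% and 28.0%, and in the edgeR fit of all 15 libraries no other member was called in both. DESeq2 called HSPA4, HSPD1 and HSPH1 in both as well, and RLE size factors and the filterByExpr filter added HSPA4. It stayed called under every alternative run at the 0.05 threshold in the siRNA comparison and in both insulin comparisons.

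**Figure D3:**
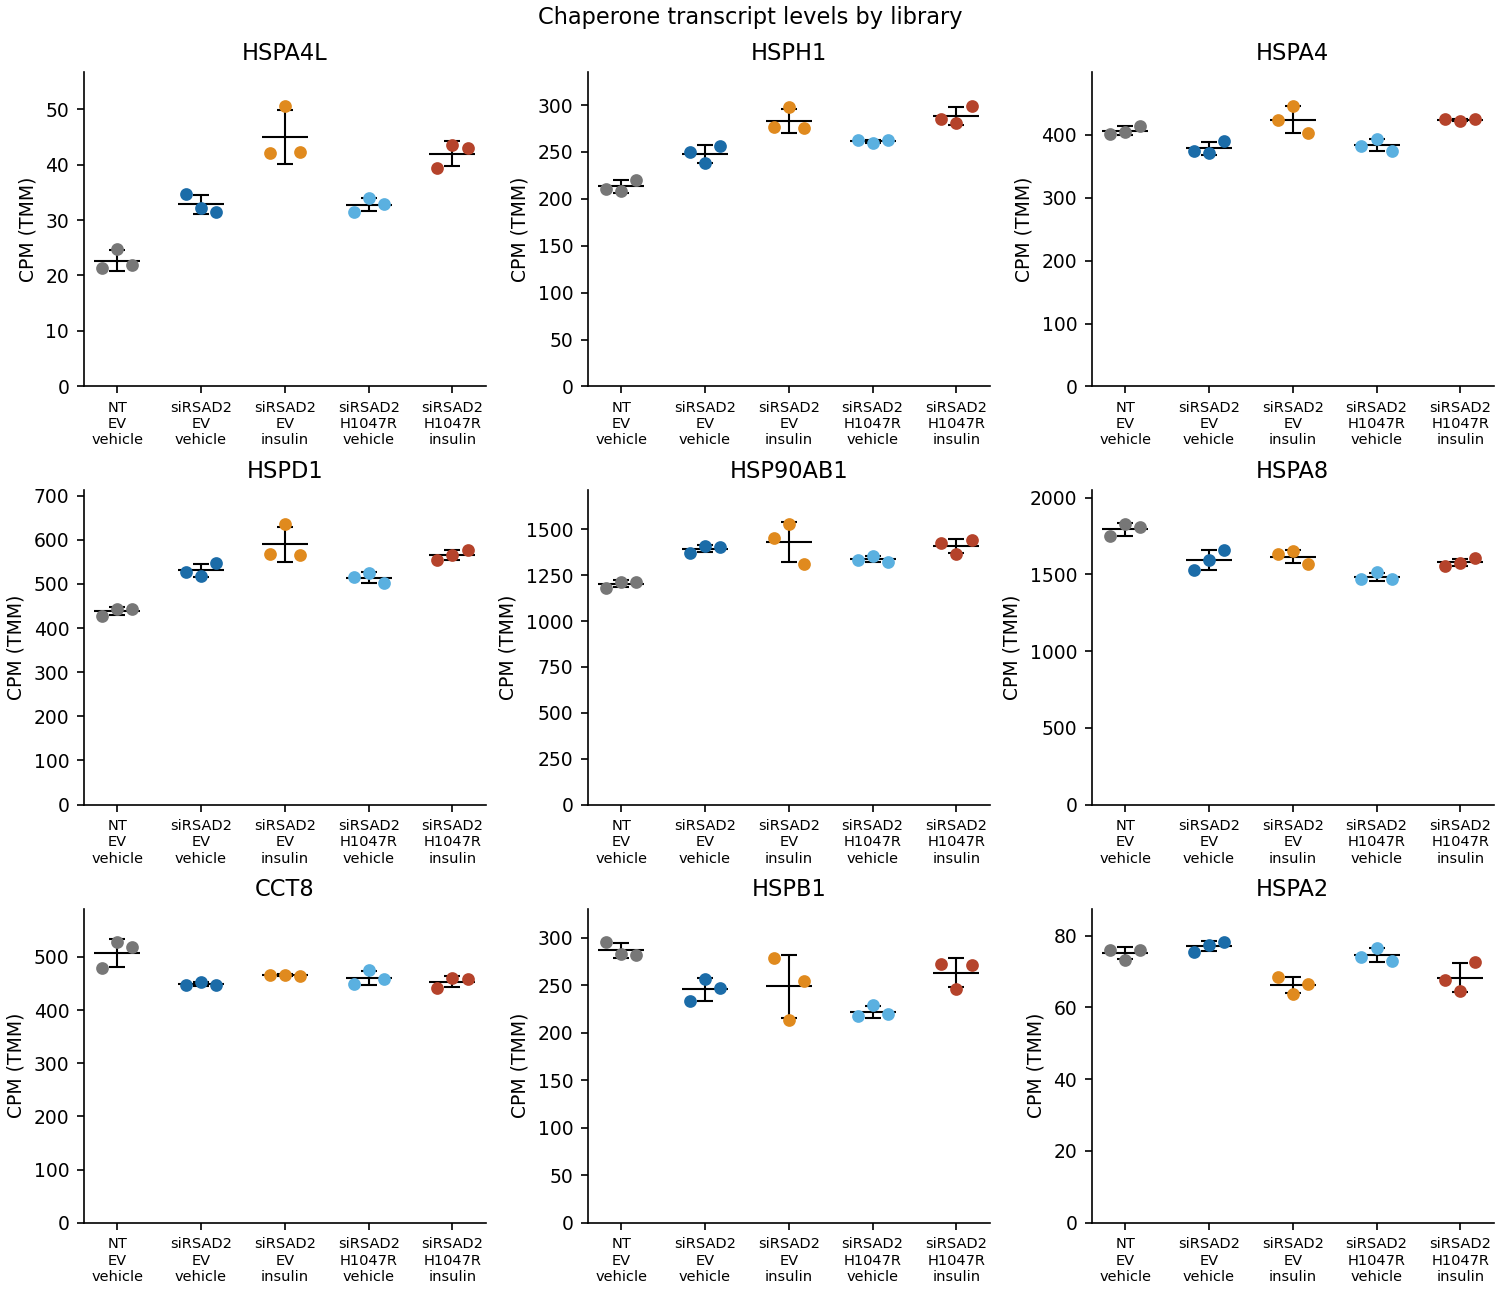
CPM (TMM-scaled) of 9 members in each library (points) with the group mean and SD (bars), n = 3 libraries per group. HSPA4L lies at 21.3 to 24.8 CPM with NT, 31.5 to 34.8 CPM in the siRSAD2 vehicle groups and 39.5 to 50.6 CPM with insulin, and HSPA8 and CCT8 are highest with NT.

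HSPH1 had 249.8, 238 and 256 CPM with vehicle and 277, 298 and 275 CPM with insulin in EV cells, a rise of 0.19 ± 0.04 (edgeR adjusted p = 6.55e-03) that was not called without EV vehicle replicate 2. With H1047R its values were 262, 259.6 and 263 CPM and 285, 281 and 299 CPM, which do not overlap either. That difference of 0.14 ± 0.04 was not called. HSPA4 showed much the same sizes. It had 374, 371 and 389.7 CPM and then 423, 446 and 402 CPM in EV cells (0.16 ± 0.04, edgeR adjusted p = 0.0148), and 382, 393 and 374 CPM and then 424, 421 and 424 CPM in H1047R cells (0.14 ± 0.04, not called). The call in EV cells was lost without EV vehicle replicate 1 or 2 or EV insulin replicate 2. The summed CPM of the HSP110 members was 641 to 678 with vehicle and 719.9 to 794 with insulin in EV cells, and 669.5 to 687 and 746 to 766 in H1047R cells.

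HSPD1 rose in EV cells, from 526, 518 and 547 CPM to 567, 635 and 565 CPM (0.15 ± 0.04, edgeR adjusted p = 0.0347). Insulin replicate 2 was the highest, and without it the difference was 0.09 and was not called. The call was also lost without any 1 of the EV vehicle libraries. In H1047R cells it had 517, 525 and 501 CPM and 553, 565 and 577 CPM, with a difference of 0.14 ± 0.04 that was not called. HSPA2 (ENSG00000126803.9, chromosome 14, 64535905 to 64546173, plus strand) went the other way, from 75.5, 77.4 and 78.1 CPM to 68.3, 63.8 and 66.6 CPM in EV cells. It fell by 0.22 ± 0.05 (edgeR adjusted p = 0.0104). In H1047R cells it had 74.1, 76.6 and 72.8 CPM and then 67.7, 64.4 and 72.5 CPM, which just do not overlap (-0.12 ± 0.05, not called).

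HSPB1 (ENSG00000106211.9, chromosome 7, 76302673 to 76304295, plus strand), which holds unfolded proteins for HSP70 and binds actin, was called in H1047R cells only. There it had 218, 229 and 219.6 CPM with vehicle and 273, 246 and 271 CPM with insulin, a rise of 0.25 ± 0.06 (edgeR adjusted p = 0.0249). In EV cells it had 233, 257 and 248 CPM with vehicle and 279, 214 and 255 CPM with insulin, so the insulin libraries lay on both sides of the vehicle group (0.02 ± 0.06). The difference between the 2 backgrounds, 0.23 ± 0.09, did not pass adjustment over all genes. The call in H1047R cells was also lost without any 1 of 5 of the 6 libraries.

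The test of the insulin by H1047R interaction called 0 members and 0 genes in all with edgeR. At an unadjusted p under 0.05 it held 2 members, HSF1 and HSPB1, beside 1611 of all 23184 genes tested. DESeq2 called 0 members and 4 genes (0.0929% of those it adjusted). For the HSP110 members the interaction lay between -0.10 and -0.02, with an SE of 0.11 for HSPA4L and 0.06 for both others, so a difference of response of that order between the backgrounds could not be resolved with these libraries.

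The TRiC subunits leaned the same way with insulin, each by little. All 8 subunits were above 0 with insulin in EV cells, from 0.05 for CCT8 to 0.14 for CCT2, and 7 of 8 in H1047R cells, with CCT8 at -0.02 and CCT3 highest at 0.15. The edgeR fit of all 15 libraries called no subunit in either background. In H1047R cells DESeq2 called CCT3, CCT4 and CCT5, the fit of the compared groups alone CCT2, CCT3 and CCT5, and the filterByExpr filter CCT3 and CCT5, all higher. Their summed CPM was 2638, 2695 and 2765 with vehicle and 2819.6, 2850.5 and 2888 with insulin in EV cells, and 2669.7, 2675 and 2742 with vehicle and 2805, 2845 and 2883 with insulin in H1047R cells. The lowest insulin library was thus above the highest vehicle library in both backgrounds, at a level close to that of the NT libraries (2726, 2854 and 2891), which had no insulin. HSPA4L, HSPH1 and HSPD1 differ from TRiC in this respect, because their NT libraries were the lowest of the 5 groups.

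**Figure D4:**
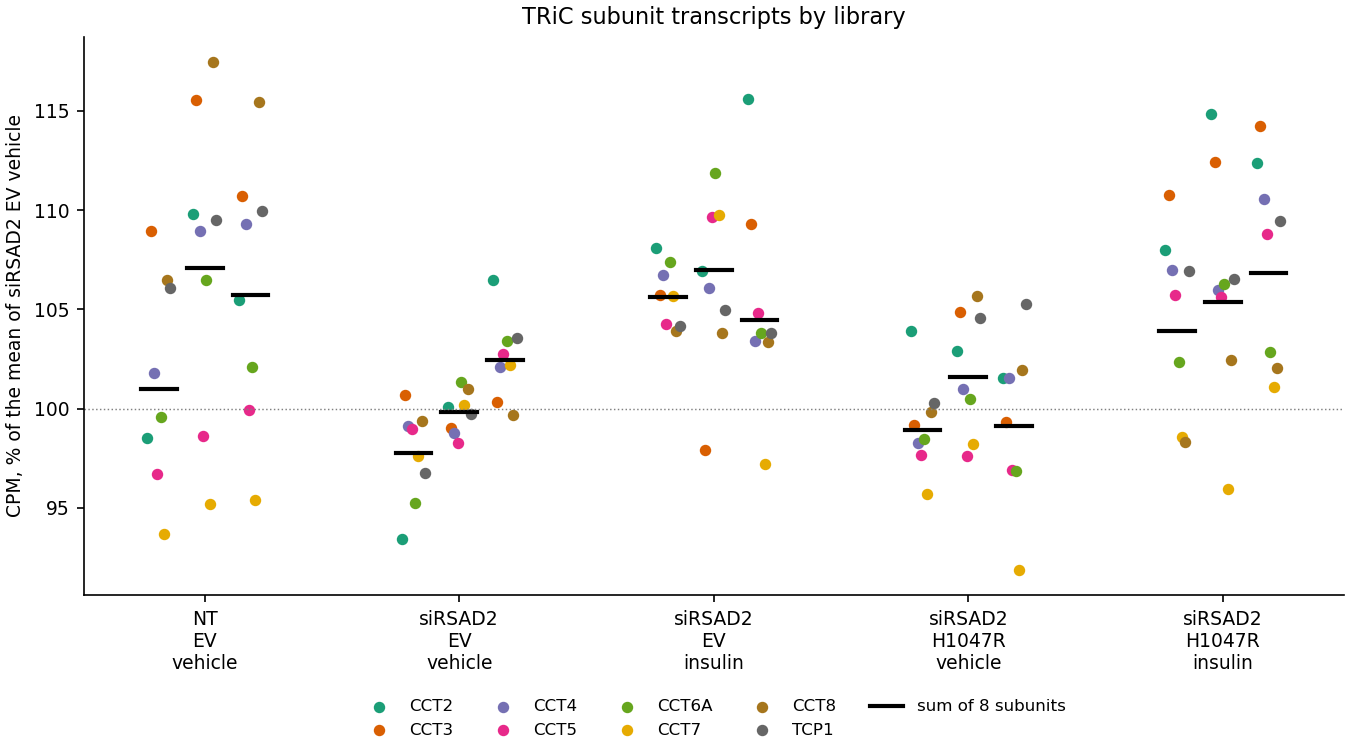
CPM of the 8 TRiC subunits in each library as a percentage of the subunit's mean in the siRSAD2 EV vehicle libraries (points), with the sum of the subunits (black bars). The sum is at 97.7 to 102% in the siRSAD2 vehicle libraries and at 104 to 107% in the insulin libraries, and CCT7 runs below the other subunits in the NT group.

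An average of the insulin effect over both backgrounds, a comparison that was added after the data were seen, had more libraries behind it. It called 15 of 43 members (34.9%), 12 higher and 3 lower, beside 8.37% of all genes (3.15% higher and 5.22% lower) and 17.0% of genes averaging at least 10 CPM. The rises were HSPA4L (0.41 ± 0.05), DNAJB5 (0.25 ± 0.06), HSPH1 (0.17 ± 0.03), HSPA4 (0.15 ± 0.03), HSPD1 (0.14 ± 0.03), DNAJA1 (0.14 ± 0.04), the HSP70 and HSP90 adaptor STIP1 (0.14 ± 0.03), CCT2 (0.13 ± 0.04), CCT5 (0.11 ± 0.03), DNAJB1 (0.11 ± 0.03), CCT3 (0.11 ± 0.03) and CCT4 (0.09 ± 0.03). BAG1 (-0.18 ± 0.05), HSPA2 (-0.17 ± 0.04) and DNAJB6 (-0.14 ± 0.04) fell. The rises thus held all 3 HSP110 members, 4 of 8 TRiC subunits and 3 of 9 J-domain members, and HSP90AA1 (0.10 ± 0.04), HSP90AB1 (0.06 ± 0.03) and HSPA8 (0.05 ± 0.03) were not called. CCT3, CCT4 and DNAJB1 were not called with the compared groups alone or the replicate block, while CCT5 stayed called under every alternative at the 0.05 threshold. The TRiC calls came to 2 (CCT2 and CCT5) in those 2 fits and to 1 (CCT5) without EV vehicle replicate 1 or H1047R insulin replicate 2. At a threshold of 0.001 they came to 0, and only HSPA4, HSPA4L and HSPH1 of all members passed.

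H1047R was compared with EV in siRSAD2 cells without and with insulin. Without insulin 1 of 43 members was called (2.33%), beside 1.36% of all genes (0.621% higher and 0.742% lower). DESeq2 called 1 other member, HSPA8, lower (3.74% of genes), and a fit of the compared groups alone called HSPE1 higher and STIP1 lower (2.28% of genes). The members had a median of -0.05, with 14 of 43 above 0, beside a median of 0.004 and 51.0% above 0 over all genes. With insulin 0 members were called by edgeR and 0 by DESeq2, beside 0.285% of all genes in edgeR (0.22% higher and 0.0647% lower) and 1.55% in DESeq2. Among the 41 members with over 1 CPM, 6 had an unadjusted p under 0.05, beside 2440 of all 23184 genes tested. The libraries did not overlap for 19 members without insulin and 6 with it, beside 19% and 12.8% of all genes. The overlap is not given for genes averaging at least 10 CPM, where most members lie. The HSP110 and TRiC members lay between -0.10 (HSPA4L) and 0.11 (CCT3), both with insulin. These comparisons share the vehicle or insulin libraries with the insulin comparisons above.

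The 1 called member was HSPE1 (ENSG00000115541.11, chromosome 2, 197500140 to 197503449, plus strand). It had 10.2, 13.5 and 12.8 CPM with EV and 19.3, 18.2 and 17.3 CPM with H1047R, a rise of 0.59 ± 0.15 (edgeR adjusted p = 0.0488, with 2.53e-07 to 0.971 over the alternatives). With insulin the values were 14.2, 10.6 and 20.8 CPM with EV and 19.2, 19.2 and 22.6 CPM with H1047R (0.45 ± 0.16, not called). All 8 libraries with a forward-strand share below 6% had 8.90 to 14.2 CPM of HSPE1, and all 7 above it, EV insulin replicate 3 included, had 17.3 to 22.6 CPM. In vehicle cells that split is the same as the split by H1047R, so their parts in the difference cannot be told apart. The adjusted p was near the threshold. It was above 0.05 with RLE size factors (0.0518), with the filterByExpr filter (0.0653), with DESeq2 (0.161) and without any 1 of the 6 libraries (0.0526 to 0.241), while the log2 fold change stayed at 0.58, 0.59, 0.58 and 0.47 to 0.65. Of the HSPE1 transcript, 34.5% overlaps HSPE1-MOB4 on the same strand.

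**Figure D5:**
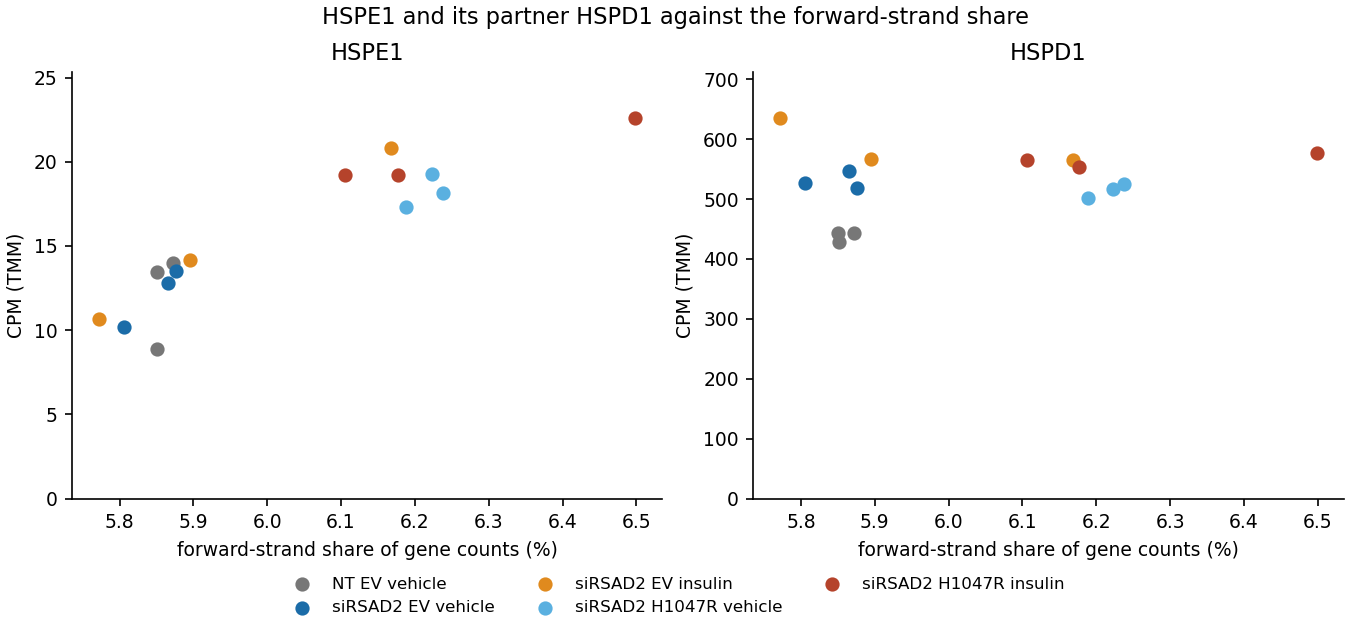
CPM of HSPE1 (left) and of its partner HSPD1 (right) in each of 15 libraries against the forward-strand share of gene counts, coloured by group. HSPE1 separates at a share of 6%, with 8.90 to 14.2 CPM below and 17.3 to 22.6 CPM above, including 1 EV insulin library, and HSPD1 is lowest in the NT libraries.

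HSF1 (ENSG00000185122.11, plus strand) was not called in any comparison. It had 34.1, 30.5 and 31.7 CPM with NT, 32.0, 32.8 and 33.0 CPM in siRSAD2 EV vehicle, 32.0, 27.4 and 28.6 CPM in EV insulin, 27.6, 29.8 and 29.3 CPM in H1047R vehicle and 33.0, 29.0 and 32.6 CPM in H1047R insulin. Most groups overlapped, and H1047R vehicle lay below both EV vehicle groups. HSF2 was not called either, with 24.7 to 31.7 CPM. These are RNA levels, and HSF1 is known to be controlled mainly as a protein.

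A test for any difference among the 5 groups called 26 of 43 members (60.5%), beside 28.4% of all genes and 51.4% of genes averaging at least 10 CPM. It held all 3 HSP110 and all 3 BAG members, both HSP90 members, 7 of 9 J-domain members and 3 of 8 TRiC subunits, and neither heat shock factor. Over all 15 libraries the highest library was 1.125 times the lowest for CCT4, 1.245 times for HSPA8, 2.37 times for HSPA4L, 2.54 times for HSPE1 and 4.48 times for the little expressed DNAJA4.

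Around the members, 71 further genes of the same chaperone network were listed and 66 were tested. With siRSAD2 18 of them were called (27.3%), 6 higher and 12 lower, beside 19.5% of all genes and 34.3% of genes averaging at least 10 CPM, so the share was near the background. The single genes are given as values and not as a result about their groups. Of 10 genes for prefoldin, which hands actin and tubulin chains to TRiC, and for other TRiC cofactors, 3 fell, among them PFDN5 by 0.18 ± 0.05 and TXNDC9 by 0.21 ± 0.06, and TBCA, which takes up folded tubulin, fell by 0.25 ± 0.07. Of 8 genes of mitochondrial protein quality control 3 fell, led by GRPEL2, an exchange factor for HSPA9, from 42.8 to 46.7 CPM with NT to 24.9 to 27.0 CPM with siRSAD2. GRPEL2 fell by 0.79 ± 0.07 (edgeR adjusted p = 9.46e-10). Of 2 immunophilin cochaperones of HSP90, FKBP5 fell (-0.44 ± 0.05) and FKBP4 rose (0.16 ± 0.04). The call of HSPA6, an inducible HSP70, rested on 107 reads in siRSAD2 EV vehicle replicate 3 against at most 18 in any other library.

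With insulin in EV cells 9 of the 66 were called (13.6%), 8 higher and 1 lower, beside 6.28% of all genes and 12.1% of genes averaging at least 10 CPM. VBP1, a prefoldin subunit, had 120 to 130.2 CPM with vehicle and 143 to 152 CPM with insulin and rose by 0.24 ± 0.05 (edgeR adjusted p = 1.55e-03). TXNDC9 rose by 0.25 ± 0.06, the mitochondrial protease subunit CLPX by 0.20 ± 0.05, and FKBP5 by 0.22 ± 0.05, while BAG6, which guards newly made membrane proteins, fell by 0.19 ± 0.05. In H1047R cells 2 were called with insulin (3.03%, beside 2.47% and 5.46%), FKBP4 (0.18 ± 0.04) and SERPINH1 (0.22 ± 0.04), the collagen chaperone HSP47, both higher. SERPINH1, a target of HSF1, was also higher with insulin in EV cells (0.13 ± 0.04), and the other 4 of the 5 listed stress targets outside the members were not called in either background.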

How the data were processed

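Total RNA (500 ng per library) from 12Z cells was converted to stranded libraries from poly(A) RNA and sequenced as paired reads. The authors trimmed reads with Trim Galore and cutadapt, ran STAR on hg38, and deposited the raw counts per gene that it wrote, in which reads with several matches are not counted. The versions of these tools are not given in the sources used here. The reverse-stranded counts were used, and the 4 summary entries of each file (unmapped, multimapping, without a feature, ambiguous), which came to 3.97 to 8.31%, 9.92 to 17.1%, 3.35 to 5.19% and 3.05 to 3.77% of read pairs, were kept out of library sizes and tests. Of 60617 gene identifiers, 60357 matched GENCODE release 44, from which symbols and coordinates were taken.

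Genes averaging at least 1 count were kept (23184) and fitted across all 15 libraries with edgeR 4.0.16 in R 4.3.3 (TMM factors, quasi-likelihood test, Benjamini-Hochberg adjustment over all genes tested, threshold 0.05). The common biological coefficient of variation was 0.0571 with 10 residual degrees of freedom. A threshold of 0.001, that of the study's methods, was an alternative, as were DESeq2 1.42.0, RLE factors, other filters, unstranded counts, fits of the compared groups alone, a replicate block and leaving out each library. A term for the forward-strand share (above or below 6%) and the averaged insulin comparison were chosen after seeing the data. CPM used TMM-scaled totals, and levels between genes were divided by the length of the canonical transcript. The steps were tested on simulated data. The members and gene lists were chosen with earlier results of these data known. Members given in every library were the up to 6 with the smallest p among those called in a comparison, HSF1, HSPA1A and HSPA1B, and others named in a comparison were chosen after their values were seen. Fold changes are relative to TMM scaling, the median of all genes lying within 0.02 of 0. The p-values of the main fit set a difference against the spread between libraries of the same group, estimated over all 5 groups together. Promoter sequences came from RefSeq (GRCh38.p14), and 40 of the 44 members matched.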

Additional observations from a re-analysis of the deposited data

How the results depend on the processing

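Of the members given in every library, HSPE1 was the one whose called value changed sign, for H1047R in vehicle cells, at -0.1565 with the term for forward-strand share. That term rests on EV insulin replicate 3 against the other EV insulin libraries, a split chosen after the data were seen, and so does not separate the forward-strand share from H1047R in vehicle cells. Values near 0 that were not called changed sign under some alternatives, such as HSPB1 for insulin in EV cells (-0.0733 to 0.117). HSPA4L was called for siRSAD2 and for insulin in both backgrounds under every alternative at the 0.05 threshold. At the threshold of 0.001 the number of members called was 4 for siRSAD2 (HSP90AB1, HSPA4L, HSPD1 and HSPH1, all higher), 1 for insulin in EV cells (HSPA4L), 0 for insulin in H1047R cells, 0 for H1047R in vehicle cells, 3 for the averaged insulin effect and 8 for any difference. With only the compared groups in the fit it was 1 for insulin in EV cells, 11 for insulin in H1047R cells and 2 for H1047R in vehicle cells. With the term for forward-strand share it was 8, 6 and 0 in the same order. For insulin in H1047R cells DESeq2 gave 10 and filterByExpr 5. For H1047R in vehicle cells RLE size factors gave 0 and filterByExpr 0, and for H1047R in insulin cells no filter on low counts gave 2 (CHORDC1 and HSPE1). The cause of these shifts was not tested. The share of all genes called is given above for DESeq2 and for the compared groups alone. It is not given for the other alternatives here and below. Those counts therefore do not tell whether the members shifted more than other genes did.

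Leaving out 1 library at a time gave 8 to 14 members for siRSAD2, 2 to 7 for insulin in EV cells (2 without EV vehicle replicate 2), 1 to 2 for insulin in H1047R cells, 0 to 0 for H1047R in vehicle cells, 0 to 4 for H1047R in insulin cells (4 without EV insulin replicate 3), 0 to 0 for the interaction, 11 to 17 for the averaged insulin effect and 22 to 29 for any difference. Replicate numbers are shared by the 4 siRSAD2 groups and not by NT. Deviations of libraries of the same number correlated with r from -0.27 to 0.35 (median -0.02), and 4 of 12 libraries correlated best with their own number, so the numbers were not taken as a pairing. With the replicate block 4 members were called for insulin in EV cells (HSPD1 was not, adjusted p = 0.0732), 2 for insulin in H1047R cells, 1 and 0 for H1047R without and with insulin, 0 for the interaction and 12 for the averaged insulin effect. Read counts were too low to rank the fold change of DNAJA4, and the few reads of HSPA1A and HSPA1B, which share most of their sequence, gave no usable fold change.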
